A study of Mus musculus with 12 samples.

Results

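The cytoplasmic ribosomal protein genes were followed in the yolk sac of mouse embryos that were homozygous for a point mutation in Arid1a, or wild type, on 2 successive embryonic days. The members were all genes on the array whose symbol is Rpl, Rps or Rplp followed by a number and at most 1 letter, with Rpl11 left out and 1 probe kept for each gene, the one with the highest mean yolk sac signal. This rule used symbols and brightness but no difference between groups, and it gave 76 genes, 45 of the large and 31 of the small ribosomal subunit, among 27845 gene names on the array. Of these, 75 members were measured (44 large, 31 small) among 13953 genes. To count as measured, a gene needed a yolk sac signal that the scanner called well above background in every replicate of some group. The remaining member, Rpl3l, did not meet this. Rpsa and Fau, which also encode or contain ribosomal proteins, have symbols outside the rule and were kept in a separate list.

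RNA from whole yolk sac was hybridised on 12 arrays, 3 biological replicates in each of 4 groups: Baf250a/Arid1a V1068G/V1068G yolk sacs at E9.5, wild-type yolk sacs at E9.5, Baf250a/Arid1a V1068G/V1068G yolk sacs at E8.5 and wild-type yolk sacs at E8.5, all on a CD1 background. Arid1a, also called Baf250a, is the subunit of the SWI/SNF (BAF) chromatin remodelling complex that binds DNA through an ARID domain, and the series set out to compare yolk sacs with and without an intact ARID-DNA contact. The mutation is constitutional, so every cell type of the yolk sac carries it, and the labels do not say whether an RNA sample came from 1 yolk sac or from several. Each yolk sac RNA was labelled with Cy5, and the same whole-mouse reference RNA, from wild-type neonates of mixed 129Sv and C57BL/6 background, was labelled with Cy3 on every array, with 500 ng of RNA for each labelling and no dye swap. Every value below is therefore a log2 ratio of yolk sac over that reference, and a value of 0 means that the normalized signals were equal. Because the reference lies under all 4 groups, it cancels from the differences between them.

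The arrays carried 41174 probes in 45018 spots, and in the yolk sac channel the share of probes well above background was 46.7% to 50.1%. All 12 visceral endoderm markers were measured, with mean log2 ratios of 1.69 to 2.36 on single arrays. So were all 12 primitive erythroid markers that had a probe, with means of 1.70 to 2.24. Both cell types belong to the yolk sac. Single arrays stood apart in other cell types. In 1 E9.5 mutant, 1 E9.5 wild-type and 1 E8.5 mutant sample, the trophoblast gene Prl4a1 had log2 ratios of 3.74, 4.31 and 5.69, against 0.26 to 1.53 elsewhere. Wild-type E8.5 replicate 2 had means of -2.12 over 11 heart and muscle markers and -0.76 over the 2 measured neural markers, where the other arrays had -2.99 to -2.71 and -1.81 to -1.69. The Arid1a probe, which a point mutation need not affect and which checks no label, differed by 0.16 ± 0.064 at E9.5 (adjusted p = 0.303) and by 0.05 ± 0.064 at E8.5 (adjusted p = 0.827) between mutant and wild type.

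The cytoplasmic ribosome translates nuclear-encoded mRNA, and each ribosome holds 1 copy of nearly all of its proteins. The small subunit reads the mRNA, and the large subunit joins the amino acids. Ribosomal protein mRNAs are among the most abundant in growing cells. They typically start with a cytosine and an unbroken run of pyrimidines, the 5′ terminal oligopyrimidine or TOP motif, through which the mTOR pathway and the RNA-binding protein Larp1 control their translation. In the yolk sac at these stages, the visceral endoderm takes up and secretes nutrients and plasma proteins while the blood islands make primitive red cells. In Diamond-Blackfan anaemia, a human disorder in which a ribosomal protein gene is often mutated, red cell production is the process most affected.

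The sequence at the transcription start was shown for the members because the TOP motif is a feature they are known for as a class. RefSeq's table for GRCm38.p6 held a start for 55 of the 76 members, and the other 21 are not shown. A run of at least 5 C or T bases reaching to within 5 bases of the first listed start was found in 31 of the 55 (56.4%), against 8506 of 27025 genes in the table (31.5%). The 13 sequences first listed belong to the members that passed the stage test described further on and had an entry. The last 3, Rpl35, Rpl15 and Rpl13a, did not pass that test (Rpl35 passed in wild types when the slide was a block) and were added after their runs had been seen to be long. Each runs from 15 bases before to 15 bases after the start, and capitals mark the run of C or T at the start, where there was one.
Rpl14: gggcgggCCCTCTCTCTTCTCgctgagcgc, chr9:120571502-120571531 (plus strand)
Rpl7a: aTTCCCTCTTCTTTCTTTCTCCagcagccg, chr2:26910792-26910821 (plus strand)
Rplp2: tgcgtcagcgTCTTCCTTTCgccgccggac, chr7:141447636-141447665 (plus strand)
Rps12: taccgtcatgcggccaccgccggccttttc, chr10:23787195-23787224 (minus strand)
Rpl35a: gcggggcgtgcgtcccacaaggccgcgcgg, chr16:33056438-33056467 (plus strand)
Rpl31: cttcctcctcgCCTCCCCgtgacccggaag, chr1:39367836-39367865 (plus strand)
Rps27: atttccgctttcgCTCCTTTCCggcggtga, chr3:90213634-90213663 (minus strand)
Rps15a: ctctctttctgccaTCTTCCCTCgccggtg, chr7:118116133-118116162 (minus strand)
Rpl27: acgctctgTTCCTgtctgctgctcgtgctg, chr11:101442230-101442259 (plus strand)
Rpl27a: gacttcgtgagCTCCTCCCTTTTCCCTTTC, chr7:109519180-109519209 (plus strand)
Rpl13: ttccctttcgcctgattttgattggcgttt, chr8:123102335-123102364 (plus strand)
Rps13: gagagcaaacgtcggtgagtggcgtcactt, chr7:116334176-116334205 (minus strand)
Rps28: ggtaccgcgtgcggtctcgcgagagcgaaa, chr17:33824548-33824577 (minus strand)
Rpl35: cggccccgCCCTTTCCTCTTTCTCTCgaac, chr2:39005117-39005146 (minus strand)
Rpl15: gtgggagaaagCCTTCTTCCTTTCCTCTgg, chr14:18270972-18271001 (minus strand)
Rpl13a: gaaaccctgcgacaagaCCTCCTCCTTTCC, chr7:45128731-45128760 (minus strand)

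Rpl7a, Rpl27a, Rpl35 and Rpl15 had the longest runs shown, 21, 20, 18 and 17 bases. The runs of Rpl27a and of Rpl13a (14 bases) go on beyond the 30 bases printed. Rps12, Rps13, Rps28, Rpl13 and Rpl35a had none of the required length at the start that RefSeq lists first. The run was found in 8 of the 13 members that passed the stage test (61.5%) and in 23 of the 42 that did not (54.8%). A second motif, CCGGAAG, the core bound by ETS factors, lay on either strand between 250 bases before and 50 after the start in 21 of 55 members (38.2%) and in 9.12% of all genes. It lay in 3 of the 13 that passed (23.1%) and in 18 of the 42 that did not (42.9%). AAGATGG, the core of the YY1 motif, lay there in 8 of 55 members (14.5%) and in 6.48% of all genes. By stage test these were 4 of 13 (30.8%) and 4 of 42 (9.52%). Whether such small counts differ was not tested. These matches describe the letters only.

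The ribosomal protein genes were among the brightest on the arrays. They made up 26 of the 50 genes with the highest mean signal, 39 of the first 100 and 53 of the first 200, and no measured member was dimmer than the median gene. No member spot was saturated. Relative to the reference the members were spread on both sides of 0. On 11 arrays the median member had a log2 ratio between -0.053 and 0.093. On wild-type E8.5 replicate 2, the array with the high heart and neural markers, it was 0.21, with 0.22 for the large and 0.21 for the small subunit. The part of other tissue in that value was not tested.

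**Figure D1:**
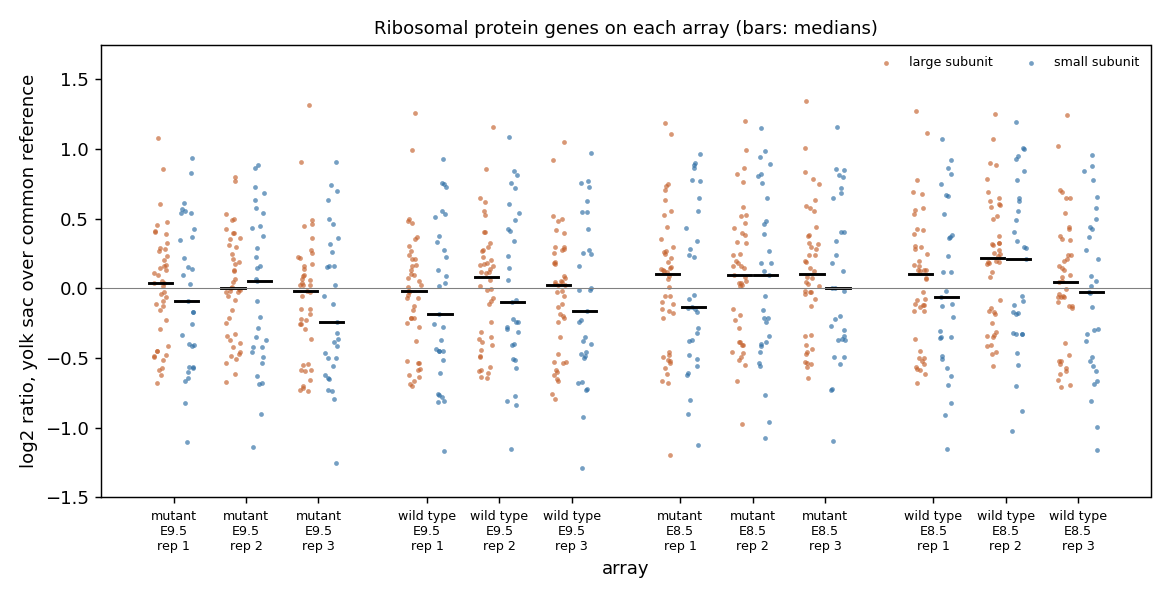
Log2 ratio of yolk sac over the common reference (vertical axis) for the 75 measured ribosomal protein genes on each of the 12 arrays, large subunit (orange) beside small subunit (blue), with bars at the medians. The spread between genes, from -1.29 to 1.35, is far wider than the shifts between arrays, and the median of wild-type E8.5 replicate 2 lies highest.

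Rpl14, a protein of the large subunit's surface, had the highest mean ratio, 1.08 over the 12 arrays. Rps20, in which mouse mutants have dark skin, had 0.94, 0.89 and 0.91 in E9.5 mutants, 0.93, 1.09 and 0.97 in E9.5 wild types, 0.97, 1.15 and 1.16 in E8.5 mutants and 1.07, 1.19 and 0.96 in E8.5 wild types, high throughout and overlapping. Such offsets between genes belong to a probe as much as to its gene. Where 25 members had a second probe brighter than the median gene, the ratios of the 2 probes differed by a median of 0.22 and by up to 0.98, with 5 pairs on opposite sides of 0. Differences between groups were steadier, with a median disagreement of 0.029 for the genotype difference at E9.5, 0.043 at E8.5, 0.066 for the stage difference in mutants and 0.053 in wild types. Many ribosomal protein genes have processed pseudogenes of nearly the same sequence, so a probe may also bind RNA of such copies.

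Replicates of a member agreed closely. The median SD between the 3 replicates of a group was 0.091 on the log2 scale over members and 0.083 over all measured genes, and among members it went from 0.036 in Rpl29 to 0.19 in Rpl27a. Rplp0, the anchor of the ribosomal stalk, was printed in 10 spots on each array, and those spots had an SD of only 0.018 to 0.051 within an array.

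No ribosomal protein gene passed the test of a difference between Arid1a V1068G homozygotes and wild types at either stage. The test was limma's moderated test on all 12 arrays, with p-values adjusted by the Benjamini-Hochberg method over 13953 genes and a threshold of 0.05. It called 0 of 75 members at E9.5, where it called 276 genes (1.98% of those tested), and 0 of 75 at E8.5, where it called 198 (1.42%). At percentages this low, a count of 0 among 75 is close to the background. Before adjustment, 0 members at E9.5 and 3 at E8.5 had a p under 0.05, against 1653 and 1723 of all genes.

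The large and small subunits each lay near 0 in the median. At E9.5 the median difference, mutant minus wild type, was 0.014 over the large and -0.009 over the small subunit genes, beside -0.001 over all genes. At E8.5 it was 0.004 and 0.010, beside 0.002. Each of the 3 slides carried 1 array of each group. Within slides 1, 2 and 3 the E9.5 medians were 0.051, -0.013 and -0.032 for the large and 0.045, -0.023 and -0.062 for the small subunit, and the E8.5 medians were 0, -0.081 and 0.072 and then 0.017, -0.067 and 0.068. The sign differed between slides in each case, so these medians are smaller than the spread between slides. Without wild-type E8.5 replicate 2, the E8.5 medians were 0.058 and 0.056. Each group had a fixed position on the slides, and position and group cannot be told apart.

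The intervals show how large a difference could have been missed. The 95% interval of a member's difference was 0.15 wide on either side in the median. It lay wholly within 0.3 of 0 on the log2 scale for 68 of 75 members at E9.5 and for 73 at E8.5, and within 0.5 for 75 and 74. Groups that did not overlap at all were also rarer among members, at 2 of 74 (2.7%) for each stage, than among all genes, at 17.1% at E9.5 and 17.9% at E8.5. Rps2 and Rpl12 were those members at E9.5, both lower in mutants, and Rpl27a and Rpl31 at E8.5, also both lower in mutants. They are named because so few met the description. Whether members differ from other genes in this was not tested. A second, dimmer Rpl31 probe gave -0.030 at E8.5, with the groups overlapping, where the chosen one gave -0.16. For Rps2 at E9.5 a second probe gave -0.074.

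**Figure D2:**
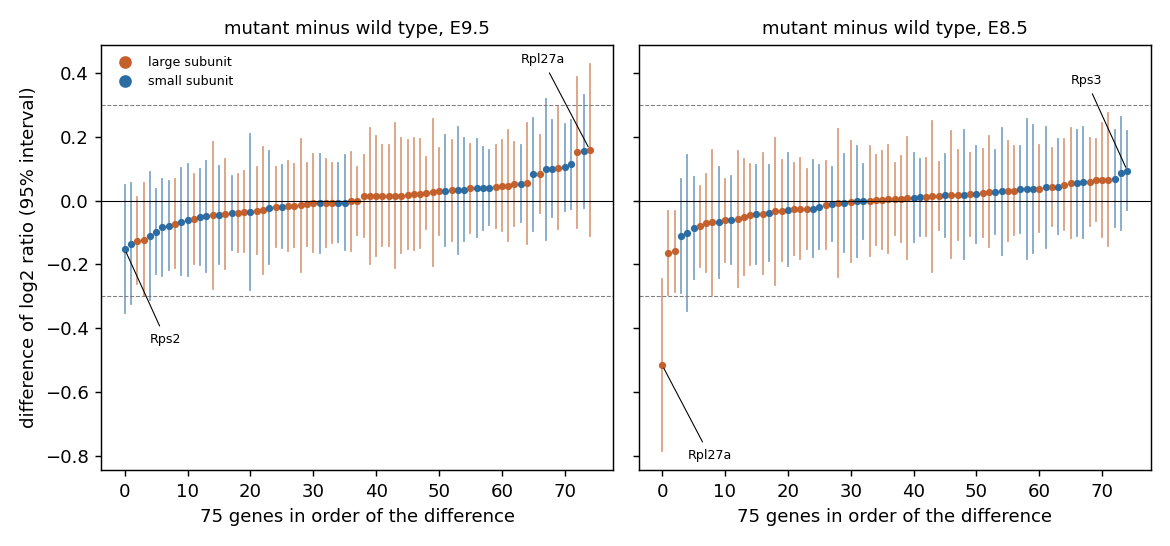
Difference of the log2 ratio, mutant minus wild type (vertical axis), for the 75 measured members in order of size at E9.5 (left) and E8.5 (right), with 95% intervals and dashed lines at 0.3 on either side of 0. All differences at E9.5 lie between -0.15 and 0.16, and at E8.5 Rpl27a at -0.52 lies apart from the other members, which end at 0.094 with Rps3.

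At E9.5 the differences ended with Rpl27a and Rps14 at the top and with Rpl14 and Rps2 at the bottom. Rps2, which lies where mRNA enters the small subunit, had 0.54, 0.64 and 0.74 in E9.5 mutants and 0.76, 0.84 and 0.77 in E9.5 wild types, a difference of -0.15 ± 0.094 (SE, n = 3 each, adjusted p = 0.595 by limma). The mutant values were all lower, and the difference did not pass the test. Rps14, which underlies the anaemia of a human myelodysplastic syndrome, had -0.088, 0.055 and -0.32 in E9.5 mutants and -0.25, -0.31 and -0.25 in E9.5 wild types, with one mutant below the lowest wild type (0.15 ± 0.083, adjusted p = 0.517 by limma). The mutant values spread widely there and covered the whole wild-type range. At E8.5, Rps3 ended the small subunit's range at the top with 0.094 ± 0.058 (adjusted p = 0.568 by limma), and Rps27 at the bottom with -0.11 ± 0.083 (adjusted p = 0.661).

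Members with known roles in development or in red cell disease showed no called difference either. Rps19, the gene most often mutated in Diamond-Blackfan anaemia, had -0.60, -0.63 and -0.62 in E9.5 mutants and -0.81, -0.41 and -0.92 in E9.5 wild types, overlapping, with a difference of 0.098 ± 0.10 (adjusted p = 0.81 by limma) and a 95% interval of -0.12 to 0.32. At E8.5 it had -0.62, -0.56 and -0.54 in mutants and -0.69, -0.47 and -0.67 in wild types, a difference of 0.036 ± 0.10 with an interval of -0.18 to 0.26. Of the other genes of that disorder, Rpl5, Rpl35a, Rps7, Rps10, Rps24 and Rps26 had differences between -0.066 for Rps7 and 0.083 for Rpl5 at E9.5. At E8.5 they lay between -0.16 for Rpl35a and 0.056 for Rps7. A second, dimmer Rpl35a probe gave 0.025 at E8.5. Rpl5 also carries the 5S RNA and can bind the p53 regulator Mdm2. Its values were 0.40, 0.35 and 0.22 in E9.5 mutants and 0.24, 0.18 and 0.30 in E9.5 wild types, against 0.35, 0.34 and 0.32 in E8.5 mutants and 0.29, 0.33 and 0.35 in E8.5 wild types, and the groups overlapped at each stage.

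Rpl38, which in mice is needed for axial patterning through the translation of Hox mRNAs, had -0.23, -0.16 and -0.23 in E9.5 mutants and -0.25, -0.093 and -0.21 in E9.5 wild types, which overlap. The difference was -0.017 ± 0.066 (adjusted p = 0.965 by limma), and at E8.5 it was 0.002 ± 0.066 (adjusted p = 0.993). Rpl24, mutated in the Belly spot and tail mouse, differed by 0.022 ± 0.080 at E9.5 and by 0 at E8.5 (SE 0.080). Rps6, the target of the S6 kinases, had -0.25, -0.35 and -0.46 in E9.5 mutants and -0.44, -0.57 and -0.40 in E9.5 wild types, overlapping, and a difference of 0.11 ± 0.065 (adjusted p = 0.548 by limma). Rpl22, which mouse T cells require, differed by 0.047 ± 0.081 at E9.5 and by 0.028 ± 0.081 at E8.5.

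Members that share a chromosome with the mutation, or lie on the X chromosome, gave no call either. Rpl22, Rps6 and Rps20 lie on chromosome 4, as does Arid1a, and their differences went from -0.084 in Rps20 to 0.11 in Rps6 at E9.5 and from 0.009 in Rps6 to 0.028 in Rpl22 at E8.5. The X-linked members Rpl10, Rpl36a, Rpl39 and Rps4x had differences between -0.049 in Rps4x and 0.026 in Rpl10 at E9.5, and between -0.070 in Rpl36a and -0.002 in Rps4x at E8.5.

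Paralogs of 2 members were also on the array. Rpl3l, the muscle form of Rpl3, was well above background in the yolk sac channel on 1 of 12 arrays, in the reference channel on all 12. The reference signal was at least 3.41-fold that of the yolk sac in E9.5 mutants, 3.66-fold in E9.5 wild types, 3.4-fold in E8.5 mutants and 3.16-fold in E8.5 wild types, each a lower bound set by the background. Rps27l, the paralog of Rps27 that is known as a p53 target, had 0.80 ± 0.087 in E9.5 mutants and 0.76 ± 0.003 in E9.5 wild types, and 0.87 ± 0.020 in E8.5 mutants and 0.87 ± 0.055 in E8.5 wild types (SD, n = 3 each). Its genotype differences were 0.041 ± 0.055 (adjusted p = 0.87 by limma) and -0.001 ± 0.055 (adjusted p = 0.994). Among the 23 measured p53 targets of a separate list, Pmaip1, a mediator of cell death, was called at E9.5, higher in mutants by 0.46 ± 0.073 (adjusted p = 0.00346 by limma), and 0 were called at E8.5.

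The member nearest to a genotype call was Rpl27a, a large-subunit protein whose mutation activates p53 in the mouse. It had -1.19, -0.97 and -0.64 in E8.5 mutants and -0.36, -0.34 and -0.57 in E8.5 wild types, so that every mutant was lower. The difference was -0.52 ± 0.13 with a 95% interval of -0.78 to -0.25 (adjusted p = 0.0613 by limma), just short of the threshold. Within slides 1, 2 and 3 it was -0.83, -0.64 and -0.074, nearly absent on slide 3, whose E8.5 mutant was the array with the highest Prl4a1. Without that array it was -0.66 and passed the test (adjusted p = 0.018). Without E8.5 mutant replicate 1 it was -0.39 (adjusted p = 0.21), and it did not pass without any of the other 10 arrays either.

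At E9.5 the same probe gave no call. It had -0.41, -0.37 and -0.55 in E9.5 mutants and -0.38, -0.63 and -0.80 in E9.5 wild types, which overlap, with a difference of 0.16 ± 0.13 (adjusted p = 0.719 by limma). The change of the genotype difference between stages was 0.67 ± 0.18 (adjusted p = 0.488), which did not pass. A second Rpl27a probe, with a mean log2 signal of 6.67 where the chosen one had 9.99, did not show it at E8.5 either. It had 0.49, 0.70 and 0.73 in E8.5 mutants and 0.55, 0.91 and 0.71 in E8.5 wild types, a difference of -0.081 with the groups overlapping. The 2 probes lay on opposite sides of 0 on every array. What the probes bind was not tested.

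**Figure D3:**
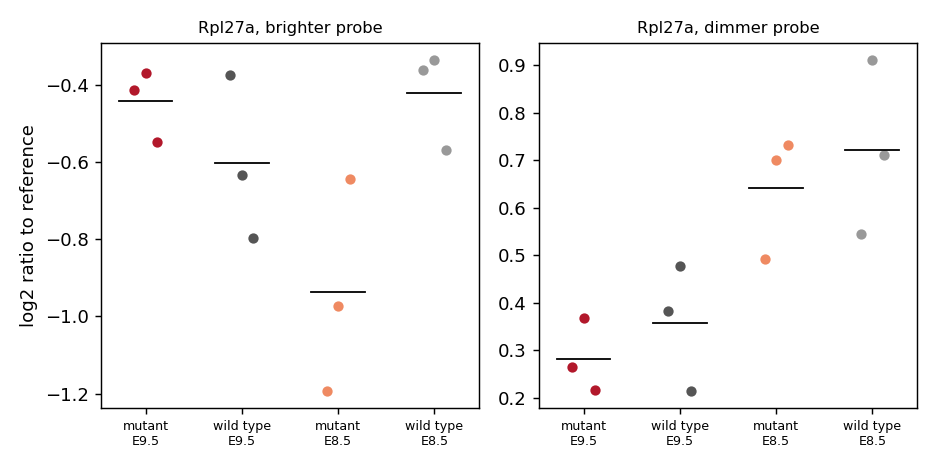
Log2 ratio to the reference (vertical axes, which differ between the panels) for the brighter (left) and the dimmer (right) Rpl27a probe on each array, with bars at the group means. On the brighter probe the mean of the E8.5 mutants is the lowest, though 1 E9.5 wild type lies below the highest of them, and on the dimmer probe the E8.5 mutants overlap the E8.5 wild types, where both E8.5 groups lie above the E9.5 groups.

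No gene on the array, member or not, passed the test of the change in the genotype difference between stages, at 0 of 13953 genes tested (0%). Before adjustment, 2 members and 801 genes had a p under 0.05. The median change was 0.019 over the large and -0.003 over the small subunit, and by member it went from -0.19 in Rps2 to 0.67 in Rpl27a, with 0.18 in Rps14 as the highest of the small subunit and -0.19 in Rpl27 as the lowest of the large. Stage differences that pass in one genotype alone are therefore not shown to differ between genotypes.

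Between E8.5 and E9.5 some members were called lower at the later stage with loess, at shares near the background. Both the number of calls and the direction of the class as a whole depended on how the arrays were normalized. With loess normalization after a background correction with an offset of 50, 12 of 75 members fell and 1 rose in mutants, and 10 fell and 0 rose in wild types. Of all genes, 10.5% fell and 10.9% rose in mutants (21.4% together), and 10.7% fell and 12.7% rose in wild types (23.5% together). The members' share of falls, 16% in mutants and 13.3% in wild types, was a little above that background, and their share of rises, 1.33% and 0%, was below it. The 6 members that fell in both, by the loess values, were Rpl14, Rpl30, Rpl7a, Rplp1, Rplp2 and Rps12, and the E9.5 minus E8.5 difference was below 0 for 65 of 75 members in mutants and 69 of 75 in wild types. The slide, which the replicate number gives, was also fitted as a block. Then 18 members were called in mutants (17 fell, 1 rose) and 22 fell in wild types, the calls above included. These were 24% and 29.3% of the members, where 24.8% and 27.9% of all genes were called. Among those added were Rpl38 and Rps29 in both genotypes and Rpl37a and Rps7 in mutants. In a whole yolk sac, fewer cells of a type and less RNA per cell cannot be told apart.

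The median stage difference with loess was -0.098 over the large and -0.099 over the small subunit in mutants, beside -0.009 over all genes. In wild types it was -0.10 and -0.12, beside -0.010. It was below 0 on every slide, at -0.030, -0.096 and -0.17 for the large and -0.035, -0.075 and -0.18 for the small subunit in mutants on slides 1, 2 and 3, and at -0.085, -0.18 and -0.075 and then -0.10, -0.17 and -0.076 in wild types. Without wild-type E8.5 replicate 2, the array that stood apart, the wild-type medians were -0.079 and -0.063 and 6 members were called.

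With the scanner's own processed signals, the downward shift of the class was gone. The medians were then 0 for the large and 0.014 for the small subunit in mutants, and 0.030 and 0.061 in wild types. In mutants 3 members fell (4%) and 2 rose (2.67%), where 9.04% of all genes fell and 10.6% rose. In wild types 3 fell (4%) and 5 rose (6.67%), where 9.45% of all genes fell and 12.5% rose. The members' shares of falls and of rises were thus below those of all genes. The risers were Rpl27a and Rpl41 in mutants and Rpl12, Rpl13a, Rpl23, Rpl41 and Rps16 in wild types, of which Rpl27a alone rose with loess. When each array was only centred on its median, the members lay at 0.16 and 0.17 in mutants and at 0.10 and 0.084 in wild types, where all genes had shifted by 0.14 and 0.11. Relative to that shift the members lay slightly above all genes in mutants and slightly below them in wild types. Loess itself gave another picture with a smaller offset in the background correction. With an offset of 16 the medians were 0.008 for the large and 0.006 for the small subunit in mutants and -0.047 and -0.015 in wild types, and 4 and 5 members were called, where 19.7% and 22% of all genes were.

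**Figure D4:**
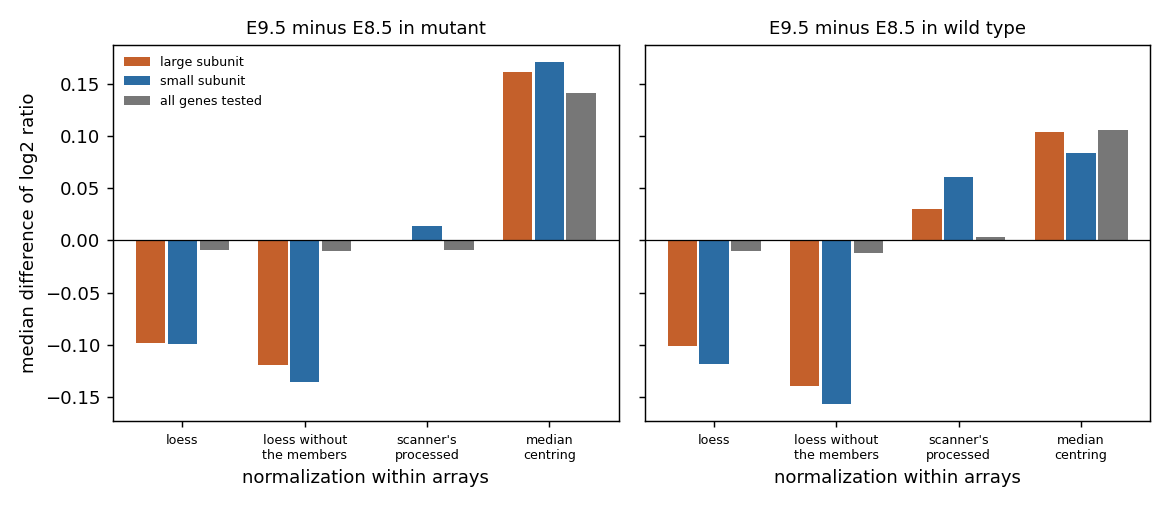
Median difference of the log2 ratio, E9.5 minus E8.5 (vertical axis), in mutants (left) and wild types (right) for large subunit, small subunit and all measured genes under 4 normalizations within arrays. The subunit medians lie near -0.1 with loess at an offset of 50 and between 0 and 0.061 with the processed signals, and with median centring they lie close to all genes.

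The brightest members were those on which the normalizations disagreed most. Among the 37 brighter members, with a mean log2 signal of 13.2 to 14.5, the median stage difference was -0.16 with loess and 0.005 with the processed signals in mutants, and -0.12 and 0.092 in wild types. Among the 38 dimmer members, at 7.47 to 13.2, it was -0.074 and 0.013 in mutants and -0.10 and -0.014 in wild types. Members were 26 of the 50 brightest genes. With the curve fitted without them the shift was larger, at -0.12 and -0.14 for the large and small subunit in mutants and at -0.14 and -0.16 in wild types. Which normalization is nearer to the RNA in the tissue was not tested.

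Few calls held across most of these settings. Across loess, loess without the members, the processed signals, and both loess and processed values centred on the members' median, Rpl14 fell and Rpl27a rose in mutants and Rpl30 fell in wild types in all 5. Rpl14 and Rpl31 fell in wild types in all but the centred loess values. Rpl30 and Rps12 fell in mutants in all but the centred processed values. With loess at an offset of 16 the 3 calls made in all 5 were also made, with Rps12 and Rplp2 as the other calls in mutants and Rps12, Rpl14, Rpl35a and Rpl31 in wild types. Plain median centring, in which 0 members fell, did not call Rpl14 or Rpl30, though these 2 differences stayed below 0 there.

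Rpl14 had 0.86, 0.77 and 0.90 in E9.5 mutants and 1.18, 1.20 and 1.35 in E8.5 mutants, a difference of -0.40 ± 0.064 (adjusted p = 0.000558 by limma). In wild types it had 0.99, 0.86 and 1.05 at E9.5 and 1.27, 1.26 and 1.25 at E8.5 (-0.29 ± 0.064, adjusted p = 0.00469 by limma). The stages did not overlap in either genotype, and the differences with the processed signals were -0.44 and -0.35. Rpl30, which in yeast represses its own splicing, had 0.32, 0.36 and 0.16 in E9.5 mutants and 0.53, 0.59 and 0.58 in E8.5 mutants (-0.28 ± 0.061, adjusted p = 0.00444 by limma). In wild types it had 0.16, 0.27 and 0.29 at E9.5 and 0.58, 0.65 and 0.65 at E8.5 (-0.39 ± 0.061, adjusted p = 0.000465), with the stages again apart, and the differences with the processed signals were -0.20 and -0.27.

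Rps12, a protein of the small subunit's beak that in Drosophila takes part in cell competition, fell as far with loess. It had 0.42, 0.44 and 0.32 in E9.5 mutants and 0.78, 0.76 and 0.80 in E8.5 mutants (-0.39 ± 0.054, adjusted p = 0.00022 by limma), and 0.38, 0.49 and 0.43 in E9.5 wild types and 0.75, 0.84 and 0.78 in E8.5 wild types (-0.36 ± 0.054, adjusted p = 0.00037). No E9.5 array reached an E8.5 array. With the processed signals the difference was -0.20 in mutants, which passed (adjusted p = 0.0406), and -0.13 in wild types, which did not (adjusted p = 0.169). A second, much dimmer Rps12 probe gave -0.25 in mutants and -0.22 in wild types with loess.

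The stalk, which recruits the elongation factors to the large subunit, is built from Rplp0 and dimers of Rplp1 and Rplp2. Rplp1 had 0.48, 0.50 and 0.49 in E9.5 mutants and 0.73, 0.86 and 0.83 in E8.5 mutants (-0.32 ± 0.066, adjusted p = 0.00324 by limma), and 0.47, 0.65 and 0.52 in E9.5 wild types and 0.78, 0.90 and 0.69 in E8.5 wild types (-0.25 ± 0.066, adjusted p = 0.0151). Rplp2 had 0.41, 0.43 and 0.36 in E9.5 mutants and 0.75, 0.77 and 0.75 in E8.5 mutants (-0.35 ± 0.057, adjusted p = 0.000613 by limma), and 0.37, 0.53 and 0.42 in E9.5 wild types and 0.69, 0.79 and 0.65 in E8.5 wild types (-0.27 ± 0.057, adjusted p = 0.00363). The E9.5 and E8.5 arrays of a genotype did not overlap for either gene. With the processed signals neither passed, with differences of -0.12 and -0.17 in mutants and -0.004 and -0.023 in wild types. Rplp0 itself had differences of -0.099 ± 0.059 in mutants (adjusted p = 0.274 by limma) and -0.14 ± 0.059 in wild types (adjusted p = 0.0936) and was not called. Rplp1 no longer passed in wild types when E8.5 replicate 2 (-0.19, adjusted p = 0.0615 by limma) or E9.5 replicate 1 was left out (-0.21, adjusted p = 0.0738).

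Rpl7a, a large-subunit protein with one of the longest pyrimidine runs shown above, had 0.45 and 0.21 in E9.5 mutants, where the third replicate was missing, and 0.64, 0.52 and 0.63 in E8.5 mutants (-0.27 ± 0.082, adjusted p = 0.0339 by limma). In wild types it had 0.31, 0.33 and 0.30 at E9.5 and 0.67, 0.59 and 0.44 at E8.5 (-0.26 ± 0.074, adjusted p = 0.0228). The stages did not overlap with loess, but the wild-type difference turned to 0.073 with the processed signals, and its direction is unsettled. The wild-type call was kept in 8 and the mutant call in 9 of the 12 fits that left out 1 array, with adjusted p-values of up to 0.0885 and 0.334, the last with a difference of -0.15 without E9.5 mutant replicate 2. A second, dimmer Rpl7a probe gave smaller loess differences, -0.12 in mutants and -0.14 in wild types.

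**Figure D5:**
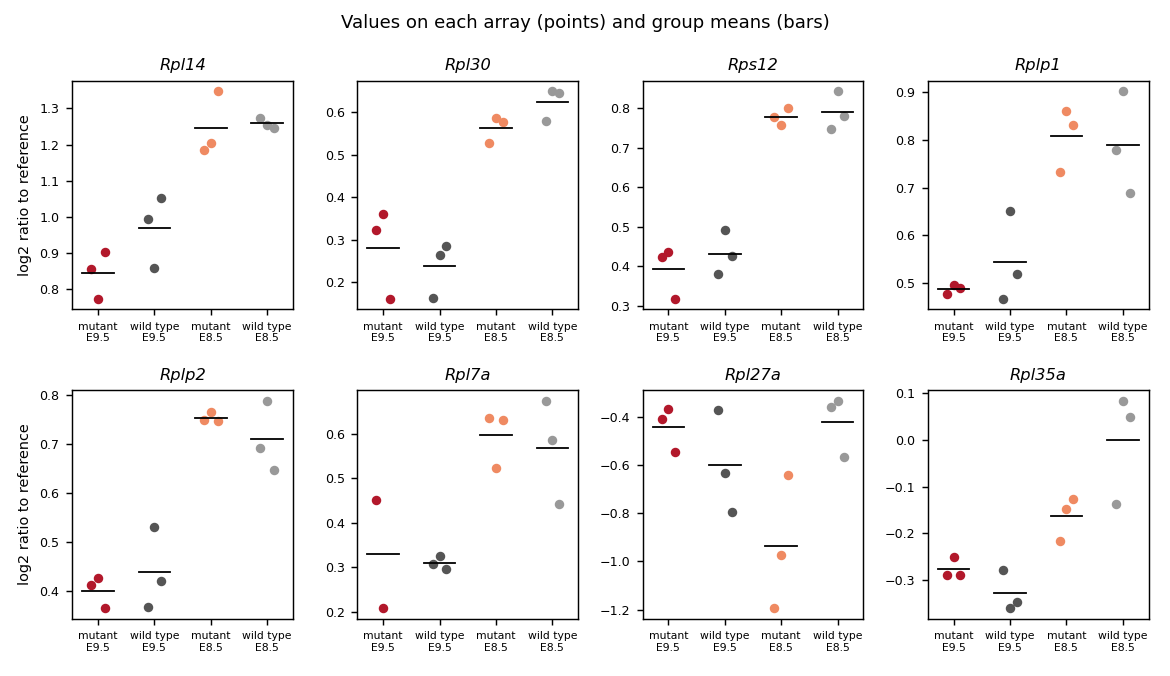
Log2 ratio to the reference (vertical axes, which differ between panels) on each array for the 6 members that fell in both genotypes with loess and for Rpl27a and Rpl35a, with bars at the group means. In the 6 panels the E9.5 arrays lie below the E8.5 arrays of the same genotype, and in Rpl27a the E8.5 mutants have the lowest mean.

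The remaining calls were made in one genotype. In mutants alone the loess values called Rpl27, Rps28, Rps27a, Rps13, Rpl8 and Rpl13 as fallen and Rpl27a as risen. Rpl27 had 0.29, 0.49 and 0.46 in E9.5 mutants and 0.71, 0.82 and 0.79 in E8.5 mutants (-0.36 ± 0.083, adjusted p = 0.00669 by limma), without overlap, against -0.17 ± 0.083 in wild types (adjusted p = 0.152). With the slide as a block Rpl27 also fell in wild types (adjusted p = 0.0383 by limma), as did Rpl8 (0.0363) and Rps13 (0.0223). Rps27a, made as a fusion with ubiquitin, had 0.56, 0.68 and 0.46 in E9.5 mutants and 0.77, 0.82 and 0.85 in E8.5 mutants (-0.25 ± 0.082, adjusted p = 0.0451 by limma). Rps28, Rps13, Rpl8 and Rpl13 had differences of -0.27, -0.24, -0.19 and -0.19 with loess. None of the 6 passed with the processed signals. With median centring Rps28, Rps27a, Rps13, Rpl8 and Rpl13 turned above 0, to between 0.011 and 0.092. These values still lay below the median of 0.14 over all genes in mutants under that centring. In the 12 fits that left out 1 array, the call was kept in 12 for Rpl27, in 11 for Rps13 (lost without E8.5 mutant replicate 2, -0.20), in 7 for Rpl8, in 6 for Rps27a and for Rpl13 and in 5 for Rps28. The last 4 were each lost without several different arrays, with adjusted p-values of up to 0.136, 0.174, 0.153 and 0.167 by limma.

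The rise of Rpl27a in mutants, 0.50 ± 0.13 (adjusted p = 0.0118 by limma), rested on the low E8.5 values given above and was of nearly the same size with the processed signals (0.49, adjusted p = 0.0338). In wild types the difference was -0.18 ± 0.13 (adjusted p = 0.337). The second Rpl27a probe went the other way, with -0.36 in both genotypes, and averaging the probes gave 0.068 in mutants. The rise therefore rests on 1 of 2 probes. Without E8.5 mutant replicate 1 it was 0.37 and did not pass (adjusted p = 0.0575 by limma).

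In wild types alone the calls were Rpl35a, Rpl31, Rps27 and Rps15a. Rpl35a, needed for large-subunit maturation and mutated in some cases of Diamond-Blackfan anaemia, had -0.29, -0.25 and -0.29 in E9.5 mutants and -0.22, -0.15 and -0.13 in E8.5 mutants, a difference of -0.11 ± 0.061 (adjusted p = 0.221 by limma). In wild types it had -0.28, -0.36 and -0.35 at E9.5 and -0.14, 0.084 and 0.050 at E8.5 (-0.33 ± 0.061, adjusted p = 0.00164). The stages did not overlap in either genotype, and the change of the stage difference between genotypes did not pass (0.22 ± 0.087, adjusted p = 0.81). A second, dimmer Rpl35a probe gave -0.19 in mutants and -0.22 in wild types. The larger fall of Rpl35a in wild types thus rests mainly on 1 of 2 probes. Rpl31, which lies at the exit of the peptide tunnel, had a difference of -0.073 ± 0.059 in mutants (adjusted p = 0.428 by limma) and of -0.22 ± 0.059 in wild types (adjusted p = 0.0131), and in wild types it also fell with the processed signals (-0.26). A second, dimmer Rpl31 probe gave -0.10 in mutants and -0.014 in wild types, so the fall of Rpl31 in wild types rests on 1 of 2 probes. Rps27 and Rps15a had differences of -0.24 ± 0.083 and -0.24 ± 0.071 in wild types, and the calls were kept in 4 and 9 of the 12 fits that left out 1 array. Neither passed when wild-type E8.5 replicate 2 was left out (-0.14 and -0.18, adjusted p = 0.196 and 0.0942 by limma), nor when wild-type E9.5 replicate 2 was (-0.27 and -0.20, adjusted p = 0.0613 and 0.0894). Leaving out any of 6 other arrays also ended the call of Rps27, and leaving out E8.5 wild-type replicate 3 that of Rps15a. For Rpl31 it was E8.5 wild-type replicate 1 (-0.20, adjusted p = 0.0514 by limma) or E9.5 wild-type replicate 3 (-0.18, adjusted p = 0.0596), and Rpl35a passed in all 12 fits. A second, much dimmer Rps15a probe gave -0.12 in mutants and -0.12 in wild types.

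At the top of the stage differences stood members that the loess fit did not call. In mutants Rps26, a Diamond-Blackfan anaemia gene, was the highest of the small subunit, with 0.081 ± 0.11 (adjusted p = 0.677 by limma). Its arrays overlapped between stages, at 0.034, 0.15 and 0.023 in E9.5 mutants and -0.17, 0.12 and 0.006 in E8.5 mutants. Rpl13a, a component of an interferon-regulated translational brake, had the highest wild-type difference, 0.16 ± 0.080 (adjusted p = 0.187 by limma), and Rps15 the highest of the small subunit, 0.15 ± 0.071 (adjusted p = 0.137).

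The genes of the machinery that builds ribosomes were called as fallen at shares above the background, with loess and with the processed signals. Of 53 measured genes for ribosome assembly in the nucleolus, 28 fell and 0 rose in mutants and 30 fell and 0 rose in wild types. The medians were -0.22 and -0.22 with loess and -0.23 and -0.25 with the processed signals, where 20 and 23 fell. The shares of all genes that fell in mutants and wild types were 10.5% and 10.7% with loess and 9.04% and 9.45% with the processed signals. Bop1, which processes the large subunit's RNA, differed by -0.46 ± 0.063 in mutants (adjusted p = 0.000176 by limma) and by -0.53 ± 0.063 in wild types (adjusted p = 5.21e-05). Nop56, a core protein of the box C/D particles that methylate ribosomal RNA, differed by -0.46 ± 0.058 and -0.49 ± 0.058. Of 20 measured genes for RNA polymerase I and its factors, which transcribe ribosomal RNA, 14 fell in mutants and 10 in wild types, with 0 risen and medians of -0.26 and -0.23 (-0.29 and -0.24 with the processed signals). Its largest subunit, Polr1a, differed by -0.33 ± 0.068 in mutants (adjusted p = 0.00338 by limma) and by -0.34 ± 0.068 in wild types (adjusted p = 0.0026). With median centring the medians were -0.040 in mutants and -0.073 in wild types for the assembly list and -0.064 and -0.092 for the polymerase list, beside the upward shift of all genes given above.

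Other genes with TOP-like mRNAs also depended on the normalization. Of 24 measured translation factors and companions, 9 fell in mutants and 10 in wild types with loess, with 0 risen and medians of -0.14 and -0.13. With the processed signals the medians were -0.062 and -0.015, and 3 and 4 fell. With median centring they turned to 0.11 and 0.057, where all genes lay at 0.14 and 0.11. Of all genes, as given above, 10.5% fell in mutants and 10.7% in wild types with loess. Npm1, a nucleolar chaperone, differed by -0.51 ± 0.076 in mutants (adjusted p = 0.00046 by limma) and by -0.50 ± 0.068 in wild types (adjusted p = 0.000224), and Hnrnpa1, an RNA-binding protein, by -0.52 ± 0.061 and -0.49 ± 0.061. Rpsa and Fau, ribosomal protein genes outside the naming rule, passed in neither genotype.

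The mitochondrial ribosome has its own proteins, and 75 of their genes were measured. In mutants 19 fell and 1 rose, and in wild types 14 fell and 1 rose, with medians of -0.074 and -0.061 with loess and -0.11 and -0.063 with the processed signals. Of all genes, 10.5% and 10.7% fell with loess. With the processed signals 9 of 75 fell in mutants and 10 in wild types, where 9.04% and 9.45% of all genes fell. With median centring the medians turned to 0.13 and 0.11, close to those of all genes. Mrpl11 differed by -0.31 ± 0.053 in mutants (adjusted p = 0.000906 by limma) and by -0.35 ± 0.053 in wild types (adjusted p = 0.000396), and Mrpl34 by -0.31 ± 0.055 and -0.29 ± 0.055. Between genotypes 0 genes of the assembly, polymerase I, TOP-like and mitochondrial lists were called at either stage, so these lists gave the same count there as the cytoplasmic ribosomal protein genes.

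Markers of cell types moved between the stages beside these genes. With loess, 10.9% of all genes rose and 10.5% fell in mutants, and 12.7% rose and 10.7% fell in wild types. Of 12 visceral endoderm markers, 5 rose in mutants and 6 in wild types and 0 fell, with array means of 2.09 to 2.35 in E9.5 mutants against 1.80 to 1.88 in E8.5 mutants, and 2.23 to 2.36 in E9.5 wild types against 1.69 to 1.90 in E8.5 wild types. Of 9 mesenchyme and mesothelium markers, 4 rose in each genotype, 1 fell in mutants and 0 fell in wild types. Of 12 primitive erythroid markers, 0 rose and 3 fell in mutants and 2 rose and 3 fell in wild types, with array means that overlapped between the stages in both genotypes. Between genotypes at E8.5, 3 of 9 mesenchyme and mesothelium, 2 of 10 endothelial and 1 of 12 primitive erythroid markers were called, all higher in mutants. Of all genes 1.42% were called there. Of these 3 lists 0 markers were called at E9.5, and 0 visceral endoderm markers were called at either stage. The part of cell composition in the stage or genotype differences of the ribosomal protein genes was not tested.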

How the data were processed

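Spot intensity of both dyes was deposited for 12 arrays, scanned with Agilent Feature Extraction 9.5.1.1 per the file headers. The deposited processed intensity values had been background-subtracted and dye-normalized by the scanner software, and its log10 ratio is Cy5 over Cy3 per the file headers. A deposited table holds log2 ratios of 19007 probes that the authors had centred on each probe's median over arrays. Its column medians lie between -0.006 and 0.004, its direction follows the log10 ratios, and its filter and any genome build were not given in the sources used here. Here, mean signals and median local backgrounds were corrected with normexp (offset 50) and normalized within arrays by loess in limma 3.58.1 (R 4.3.3), with the 1639 control spots at weight 0. Spots flagged as outliers, or more than 20 units below background, were missing, which touched 2 members (Rpl7a in E9.5 mutant replicate 3 and Rpl3 in E8.5 mutant replicate 2). Spots of a probe were averaged, and 1 probe was kept for each gene. A group-means model on 12 arrays gave 5 contrasts with 8 residual degrees of freedom and a prior of 6.21, and p-values were adjusted over 13953 genes. The model was tested on simulated log2 ratios drawn around values already normalized by loess, a test that does not cover the loess step.

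Members named in the text are those past the threshold (at most the 8 largest for each direction and contrast, with the others named after their values were seen), the highest and lowest of each subunit and contrast, and those with the roles given. At most 3 genes of each other list are named for a direction and contrast. The members, lists and tests were chosen with earlier results of these data known. Arrays with the same replicate number share a slide per the file headers. Their deviations from the group means correlated by -0.007 to 0.421, above 0.1 in 16 of 18 pairs and in every pair of both stage comparisons, so the fit with the slide as a block stands beside the stage counts. The replicates are biological per the labels. The number of arrays limits the precision. The alternatives tried were the scanner's processed signals, the deposited table, median centring, offset 16, other filters on dim or saturated spots, the mean of all probes, array weights, a replicate block, and fits without single arrays or without the 3 arrays high in Prl4a1. A loess without the members and 2 centrings on the members' median were added after the data were seen. Values of a few single genes are not reported here.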

Additional observations from a re-analysis of the deposited data

How the results depend on the processing

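In the genotype contrasts the count of members called was 0 under every alternative but one kind: Rpl27a was called at E8.5 (-0.66) without mutant E8.5 replicate 3, alone (adjusted p = 0.018) or with the other 2 arrays high in Prl4a1 (1 member, adjusted p = 0.0185). With median centring the E8.5 medians were -0.14 for the large and -0.135 for the small subunit, beside -0.089 over all genes, the E9.5 large-subunit median was -0.068, beside -0.057, and the large-subunit median change of the difference between stages 0.080, beside 0.028. Leaving out single arrays gave 0 to 1 members at E8.5, large-subunit medians of -0.031 to 0.058 there, and -0.038 to 0.049 for the change between stages, the last 2 moved most without wild-type E8.5 replicate 2.

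The stage counts, 13 in mutants and 10 in wild types, moved more. They were 5 in mutants with the processed signals and with the deposited table, 1 and 0 with median centring, 4 and 5 with offset 16, 4 and 6 without the 3 arrays high in Prl4a1, 7 and 4 with loess centred on the members, 3 and 6 with processed signals centred on them, and 16 in wild types with loess fitted without them. Stage medians were 0 (large, mutants), 0.030 and 0.061 (large and small, wild types) with the processed signals and again with the deposited table. Median centring gave 0.161 and 0.171 in mutants and 0.104 and 0.084 in wild types, and offset 16 gave 0.008 and 0.006 in mutants and -0.047 and -0.015 in wild types. Leaving out single arrays gave 8 to 16 members in mutants, 8 without mutant E8.5 replicate 2 or 3, and 6 to 11 in wild types, 6 without wild-type E8.5 replicate 2. The cause was not tested.

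Signs that turned were those of Rpl7a in wild types (0.073 with the processed signals and with the deposited table, 0.088 with processed signals centred on the members), Rplp1 in wild types (0.010 with the last of these), and, in mutants with median centring, Rps28 (0.011), Rpl7a (0.058), Rps27a (0.046), Rps13 (0.034), Rpl8 (0.082) and Rpl13 (0.092). With median centring the median over all genes in mutants was 0.141, and the mutant values listed lay below it.

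With the replicate block, 18 members were called between stages in mutants and 22 in wild types, and 0 between genotypes. It ended no stage call.

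Over all genes, the genotype calls were 276 at E9.5, against 26 with median centring, 167 with the processed signals, 177 with the deposited table, 154 and 121 centred on the members and 124 without the 3 arrays, and 198 at E8.5, against 10 with median centring, 441 with array weights, 121 with loess centred on the members and 86 without the 3 arrays. The test of the change between stages called 1 gene with the block, 3 with array weights and 2 without the 3 arrays. Stage calls over all genes were 1753 in mutants and 1455 in wild types with median centring, and 1327 in mutants without the 3 arrays. Labelling without a dye swap, 3 samples a group and probes near the top of the signal range limit what these values can show.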

Other observations

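Of 18 measured Myc and growth regulators, which act on ribosome production, 1 rose and 4 fell in mutants and 3 rose and 3 fell in wild types, with medians of -0.062 and -0.024. These counts are near the background, in which 21.4% of all genes were called in mutants and 23.5% in wild types, and single genes are given as values. Mycn, which drives growth in the embryo, differed by -0.60 ± 0.15 in mutants (adjusted p = 0.0123 by limma) and by -0.61 ± 0.15 in wild types (adjusted p = 0.00996). Myc, a driver of ribosomal protein and ribosomal RNA synthesis, differed by -0.38 ± 0.088 in mutants (adjusted p = 0.00686 by limma) and by -0.42 ± 0.088 in wild types (adjusted p = 0.00366). Larp1, which binds the TOP motif, differed by -0.29 ± 0.056 and -0.23 ± 0.056, and Mxd4, a Myc antagonist, by 0.20 ± 0.064 and 0.26 ± 0.064. All 4 had the same sign with the processed signals.

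Of 23 measured p53 targets, which respond among other signals to faults in ribosome assembly, 6 rose and 2 fell in mutants and 5 rose and 2 fell in wild types, where 10.9% and 12.7% of all genes rose and 10.5% and 10.7% fell. Trp53inp1, a cofactor of p53, differed by 0.51 ± 0.086 in mutants (adjusted p = 0.000908 by limma) and by 0.67 ± 0.086 in wild types (adjusted p = 9.43e-05). Pmaip1 differed by 0.66 ± 0.073 in mutants (adjusted p = 2.58e-05 by limma) and by 0.39 ± 0.073 in wild types (adjusted p = 0.00169). Aen, a nuclease induced by p53, went the other way, with -0.22 ± 0.053 in mutants (adjusted p = 0.00942 by limma) and -0.24 ± 0.053 in wild types (adjusted p = 0.00437).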
